A study of Mus musculus with 6 samples.

Results

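The genes described here are 10 mouse genes of the membrane-anchored serine protease system of epithelia, *Tmprss2*, *Tmprss4*, *Tmprss11a*, *Tmprss11d*, *Tmprss11e*, *St14*, *Prss8*, *Prss22*, *Prss27* and the inhibitor gene *Spint1*. They were taken by name from the array annotation, which gave 12 probes for these 10 of the 34298 gene names on the array. Expression was measured on 6 single-color Agilent mouse arrays, 3 of esophageal and 3 of stomach epithelial organoids, which are epithelial cells grown as three-dimensional structures in Matrigel. Both tissues came from mice 1, 2 and 4, and the methods give wild-type C57BL/6 female mice. All cultures were at passage 0 and were harvested on day 8, except the stomach organoids of mouse 4 on day 7, and all 6 are labelled as controls. Stomach glands came from the corpus. Both media held EGF, noggin, FGF-10, N-acetyl-cysteine, nicotinamide, a TGF-beta receptor kinase inhibitor and a ROCK inhibitor, while forskolin was added for esophagus, and for stomach R-spondin1 and WNT3A in conditioned medium and gastrin. Tissue and medium therefore cannot be told apart in any comparison given here.

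Type II transmembrane serine proteases are trypsin-like enzymes held in the plasma membrane by a single segment near the amino terminus, with the catalytic domain outside the cell, and they are made as inactive zymogens. In epithelia the best known pair is matriptase, encoded by *St14*, and prostasin, the lipid-anchored protease encoded by *Prss8*, which activate one another and are held in check by the Kunitz-type inhibitor HAI-1, encoded by *Spint1*. In stratified epithelia this system is known for its part in barrier formation, and its members also process the epithelial sodium channel, growth factors and viral surface proteins.

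The probes set what each value measures. Their first 30 of 60 bases are given for the 5 genes that differed between the tissues, because the *Tmprss11* genes are paralogs and a shared stretch could mix their signals. Positions are those of the array annotation (build mm9) and cover the bases printed. They are chr5:86839487-86839516 for *Tmprss11a*, chr5:86732030-86732059 for *Tmprss11d*, chr5:87134359-87134388 for *Tmprss11e*, chr16:97786722-97786751 for *Tmprss2* and chr9:44981009-44981038 for *Tmprss4*, all on the minus strand. No base is in capitals.
Tmprss11a probe: caaactgtctgctgcagcatttcattcatg
Tmprss11d probe: ccaacttcctactgttggcattatttttta
Tmprss11e probe: gtccatccttaaataaacatgtaagtagta
Tmprss2 probe: gaagttcctagcttcagataaagatgaaag
Tmprss4 probe: ggtattgcaattgtcacctctgtggtcaat
Among the 9 probes of the *Tmprss11* genes, the longest run of bases shared by probes of different genes was 8 of 60, over 34 pairs. The probes were compared with each other and not with the transcripts of the other genes. A match of a probe to the transcript of a paralog was therefore not tested.

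All values below are the deposited log2 intensities, averaged over the spots of a probe. The tissues were compared with limma over 55681 probes, and a gene was called at a Benjamini-Hochberg adjusted p under 0.05 for its brightest probe. A value was taken as a measured level where the scanner software marked the spot well above background, as it did for 45.5% to 51.1% of the spots of an array that were not controls. None was saturated. The labels held against marker genes. Of 7 squamous markers 6 were higher in esophagus, such as *Krt5*, which read 17.07 to 17.08 in esophagus and 4.85 to 5.39 in stomach, where 1 of 3 arrays was well above background, and all 7 columnar and all 7 gastric gland markers were higher in stomach, such as *Krt18*, with a difference of -5.47. The exception was the brightest of 4 probes of *Trp63*, the squamous master regulator, at -1.22, while its other 3 probes, not above background in stomach, were each at least 49.8-fold higher in esophagus. Of the markers of other cell types, none of 6 for fibroblasts, 3 for smooth muscle, 5 for immune cells and 3 for endothelium was called by limma (1, 0, 1 and 1 at an unadjusted p under 0.05). Of all 34298 gene names, 9442 had an unadjusted limma p under 0.05. Of 4 for mast cells 1, *Kit*, was called higher in stomach. *Kit* was well above background on 2 of 3 stomach arrays and on no esophagus array, so its difference of -0.74 is set against a level that was not measured. The fibroblast list had a mean log2 level of 4.86 to 5.09 in esophagus and 5.03 to 5.16 in stomach organoids. The esophagus array of mouse 4 was the only array on its slide, and the other 5 shared 1 slide. The number of mice, 3 per tissue, limits the precision. Each tissue of a mouse was measured on 1 array, so the limma p-values reflect the spread between arrays, not between mice alone. limma moderates this spread toward that of all probes, and the fit had no term for the mouse.

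Of the 10 genes, 4 were higher in esophagus, namely *Tmprss11a*, *Tmprss11d*, *Tmprss11e* and *Tmprss4*, and 1, *Tmprss2*, was higher in stomach, while 5 were not called. Across all 34298 gene names, 7.15% were called higher in esophagus and 7.7% higher in stomach. Among the 18492 names detected, that is, well above background throughout 1 tissue or both, the shares were 12.8% and 13.9%. The median difference, esophagus minus stomach, was 0.47 over the 10 genes and 0.03 over all names. All 3 esophagus values lay above all 3 stomach values for 5 of the 10 genes, as for 16.9% of 34266 names, and all 3 stomach values lay above for 2, as for 14.7%. In whole organoids, fewer cells of a type and less RNA per cell cannot be told apart.

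**Figure D1:**
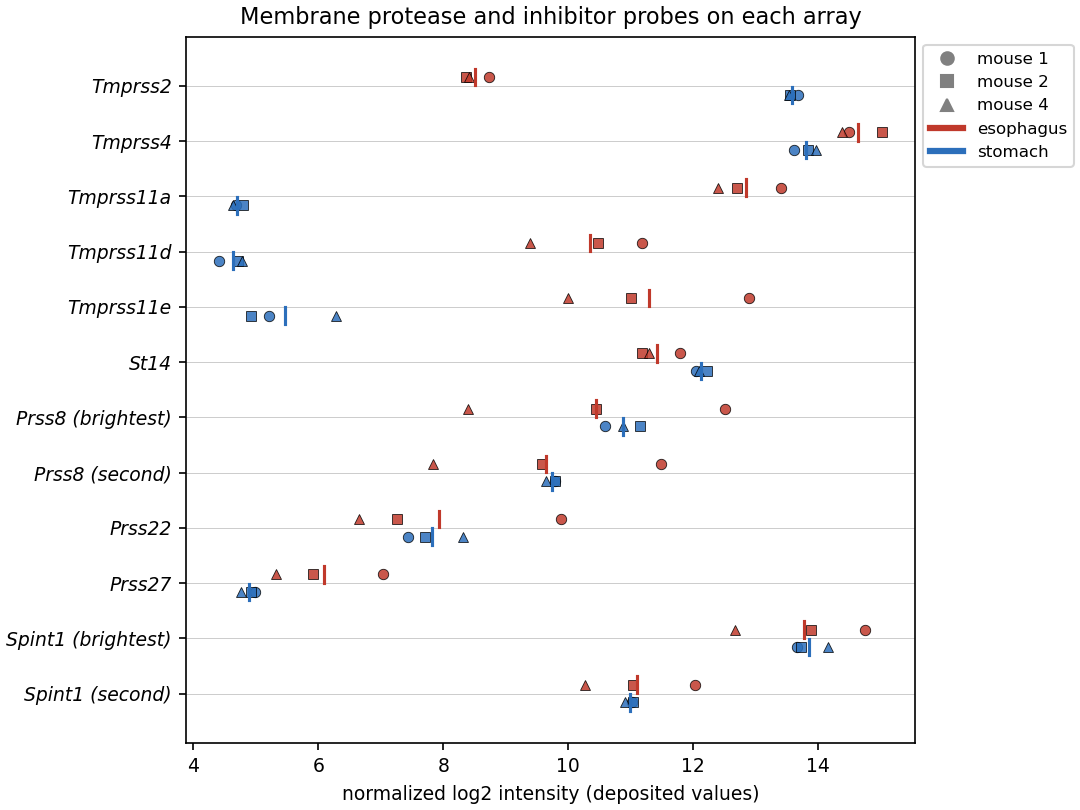
Deposited log2 intensity (x axis) of each of the 12 probes (rows) on each array, esophagus in red and stomach in blue, with the symbol giving the mouse and the bar the tissue mean. The *Tmprss11* probes sit between 9.39 and 13.41 in esophagus and between 4.42 and 6.28 in stomach, *Tmprss2* shows the opposite order, and *Prss8*, *Prss22* and *Spint1* overlap between tissues.

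Of the type II transmembrane proteases, *Tmprss11a*, *Tmprss11d*, *Tmprss11e* and *Tmprss2* had the widest differences of the 10 genes. *Tmprss11a* (NM_001033233, probe at chr5:86839457-86839516) read 13.41, 12.70 and 12.40 in the esophagus organoids of mice 1, 2 and 4, against 4.69, 4.79 and 4.64 in the stomach organoids of the same mice. No stomach array had it well above background, and the tissues did not come near each other. The difference was 8.13 ± 0.25 (SE, n = 3 per tissue, limma adjusted p = 7.86e-07). Because the stomach level is only a bound, the ratio is given as at least 266-fold, taking for each stomach array the higher of its own value and the lowest signal that the array had well above background. This bound holds on the deposited scale only, and the log2 difference was 6.90 from the scanner intensities with a larger offset of 50 in the background correction.

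*Tmprss11d*, the gene of the protease known in humans as airway trypsin-like protease, followed the same division with a wider spread (NM_145561, chr5:86732000-86732059). Its esophagus values were 11.18, 10.47 and 9.39 and its stomach values 4.42, 4.71 and 4.78, the latter not well above background on any array. On the deposited scale it was at least 48.7-fold higher in esophagus, with a log2 difference of 5.71 ± 0.41 (SE, n = 3 per tissue, limma adjusted p = 6.94e-05), and with the offset of 50 the difference was 4.41. *Tmprss11e*, which encodes the protease DESC1 (NM_172880, chr5:87134329-87134388), read 12.89 in mouse 1, 11.00 in mouse 2 and 2.89 less than mouse 1 in mouse 4 in esophagus, against 5.22, 4.92 and 6.28 in stomach. Here 2 of 3 stomach arrays were well above background, so that a low stomach level was measured. The lowest esophagus array was still well above the highest stomach array. The log2 difference was 5.83 ± 0.69 (SE, n = 3 per tissue), or 56.7-fold, with a limma adjusted p of 0.00116. The size rests partly on single arrays, since the log2 difference was 5.03 without the esophagus array of mouse 1 and 6.47 without that of mouse 4. It was 4.94 with the offset of 50 and 7.0 with scaling to the 75th percentile.

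*Tmprss2*, a protease best known for cleaving the surface proteins of respiratory viruses, was the only one of the 10 called higher in stomach (NM_015775, chr16:97786692-97786751). It read 8.74, 8.37 and 8.42 in esophagus and 13.68, 13.54 and 13.53 in stomach, in the order of mice 1, 2 and 4. All 6 values were well above background, so *Tmprss2* was measured in both tissues. The difference was -5.07 ± 0.16 (SE, n = 3 per tissue), a 33.6-fold higher level in stomach, with a limma adjusted p of 7.86e-07. Its replicates were also among the closest of the 12 probes, with a range of 0.37 in esophagus and 0.15 in stomach.

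*Tmprss4* and *St14* were bright in both tissues and differed little between them. *Tmprss4*, whose product can activate the epithelial sodium channel (NM_145403, chr9:44980979-44981038), read 14.49, 15.02 and 14.38 in esophagus and 13.61, 13.84 and 13.97 in stomach. The groups did not overlap, and the lowest esophagus array (14.38) lay close to the highest stomach array (13.97). The difference of 0.82 ± 0.21 (SE, n = 3 per tissue, 1.77-fold) passed with a limma adjusted p of 0.0389. It did not pass with the mouse as a block (adjusted p = 0.0578) or with the offset of 50 (0.79, adjusted p = 0.056), and leaving out 1 array gave limma adjusted p-values of 0.0344 to 0.157. The call was lost without the esophagus array of mouse 1 (0.0563) or 2 (0.0923) and without the stomach array of mouse 1 (0.157) or 2 (0.12).

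*St14*, the matriptase gene (NM_011176, chr9:30897249-30897308), read 11.78, 11.18 and 11.29 in esophagus and 12.04, 12.22 and 12.09 in stomach. Every stomach value lay above every esophagus value. The difference of -0.70 ± 0.19 (SE, n = 3 per tissue, 95% interval -1.14 to -0.26) had a limma adjusted p of 0.0528 and was not called. It passed without the esophagus array of mouse 1, at -0.88 and an adjusted p of 0.0142, and narrowly where only probes well above background were tested (adjusted p = 0.0497).

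For *Prss8*, *Prss22* and *Spint1* the esophagus arrays differed more from each other than the tissue means did. *Prss8*, the prostasin gene, had 2 probes. The brighter one (NM_133351, chr7:135069848-135069907) read 12.51, 10.44 and 8.39 in esophagus and 10.59, 11.15 and 10.88 in stomach, and the second (chr7:135069232-135069291) read 11.49, 9.58 and 7.84 against 9.79, 9.78 and 9.64. On both probes mouse 1 was above all stomach values in esophagus and mouse 4 below all of them. The differences between tissues were -0.43 ± 0.88 and -0.10 ± 0.77 (SE, n = 3 per tissue, limma adjusted p = 0.839 and 0.961). The 95% intervals, -2.47 to 1.61 and -1.89 to 1.70, leave room for a difference in either direction. Without the esophagus array of mouse 4 both estimates turned positive, to 0.60 and 0.80, and neither passed.

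*Prss22*, a tryptase-like gene (NM_133731, chr17:24131652-24131711), showed the same kind of spread. Its values were 9.89, 7.26 and 6.65 in esophagus and 7.44, 7.71 and 8.31 in stomach, so that the esophagus range enclosed the stomach range. The difference was 0.11 ± 0.75 (SE, n = 3 per tissue, 95% interval -1.64 to 1.86, limma adjusted p = 0.955), and it was -0.87 without the esophagus array of mouse 1. *Prss27*, which encodes the protease marapsin (NM_175440, chr17:24175222-24175281), was close to background. It read 7.03, 5.92 and 5.32 in esophagus, 2 of the 3 arrays being well above background, and 4.99, 4.92 and 4.76 in stomach, where none was. Though the groups did not overlap, the difference of 1.20 ± 0.39 (SE, n = 3 per tissue) was not called (limma adjusted p = 0.0978). It passed at 1.58 without the esophagus array of mouse 4, with an adjusted p of 0.0204, and fell short at 0.73 without that of mouse 1 (adjusted p = 0.0879) and at 0.62 with the offset of 50.

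*Spint1*, encoding HAI-1, was bright in both tissues. Its brighter probe (NM_016907, chr2:119074929-119074988) read 14.74, 13.89 and 12.67 in esophagus and 13.66, 13.73 and 14.16 in stomach. The second probe (chr2:119074872-119074931), which overlaps the first by a few bases, read 12.03, 11.03 and 10.26 against 11.02, 11.04 and 10.90. Again the esophagus values lay on both sides of the stomach values. The differences were -0.08 ± 0.47 and 0.12 ± 0.39 (SE, n = 3 per tissue, limma adjusted p = 0.947 and 0.902), with 95% intervals of -1.16 to 1.0 and -0.79 to 1.04.

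**Figure D2:**
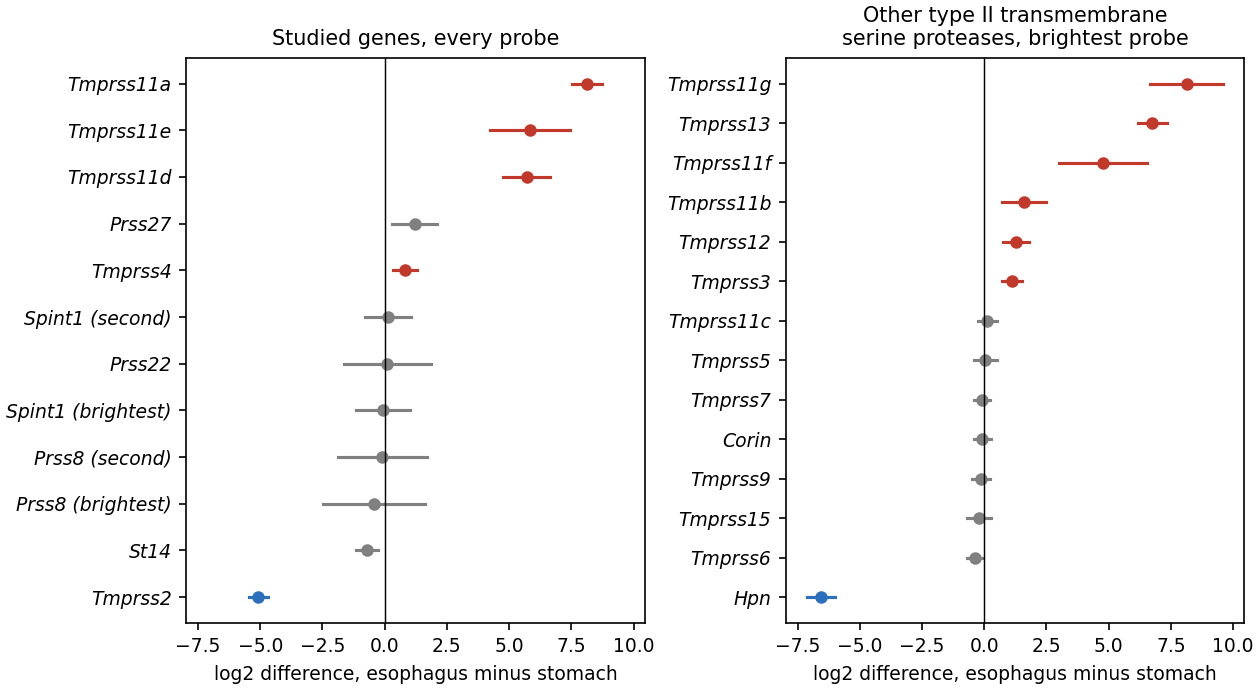
Log2 difference, esophagus minus stomach (x axis, dots), with its 95% interval (lines), for every probe of the 10 genes (left) and the brightest probe of 14 other type II transmembrane serine proteases (right). Red marks genes called higher in esophagus, blue higher in stomach and grey not called, and *Tmprss2* at -5.07 and *Hpn* at -6.57 are the 2 blue ones.

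The spread within the esophagus was ordered by mouse for most of these genes. Of the 12 probes, 9 were highest in mouse 1 and lowest in mouse 4 on the esophagus arrays, and the esophagus range was wider than the stomach range for 12 of 12. A wider esophagus range was also the more common case among all gene names well above background there, at 9818 of 16588. The median range of the 12 probes was 1.78 in esophagus and 0.30 in stomach, on the log2 scale. Counted over the 9 genes well above background on all 3 esophagus arrays, 6 had the highest value in mouse 1 and the lowest in mouse 4, against 17.5% of the 16588 gene names measured the same way, whose median ranges were 0.56 and 0.45. *Tmprss2*, *Tmprss4* and *St14* were the exceptions to that order.

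Genes of late stratified differentiation were set beside this, from a list of 10 made with the values already known. Of these, 8 were called higher in esophagus, and 5 had the order highest in mouse 1 and lowest in mouse 4, with 8 lowest in mouse 4. Of the 16588 gene names well above background on all 3 esophagus arrays, 2904 had that order and 4950 were lowest in mouse 4. *Tgm1*, the transglutaminase of the cornified envelope, read 14.80, 13.54 and 12.36 in the esophagus organoids of mice 1, 2 and 4. *Cdsn*, encoding corneodesmosin, read 14.65, 14.30 and 7.48, and *Lor*, encoding loricrin, 14.44, 16.94 and 10.38. The spread was not shared by all, since *Krtdap* stayed between 16.59 and 17.02. The 2 genes not called were *Ivl*, at 8.07, 6.90 and 7.90 in esophagus (difference 0.05), and *Tgm3*. The brightest *Tgm3* probe read 9.28, 9.16 and 9.26 (difference -0.09), while its second probe read 10.96, 12.02 and 8.43 (difference 5.68). The mean log2 level of the list ranged from 11.59 to 13.97 over the esophagus arrays. Of the 5 immune markers, *Cd68*, a lysosomal gene of macrophages, had the same order of mice, at 14.77, 12.94 and 11.80, while *Ptprc*, the pan-leukocyte marker, was not above background (4.40 to 4.91), nor was *Lyz2*. *Cd3e* (7.39, 7.23 and 7.55) and *Cd79a* (5.56, 6.80 and 5.72) had other orders, and the mean of the 5 was 6.86 to 7.35. The array of mouse 4 was also alone on its slide, so array and slide cannot be told apart, and the part of either in the protease values was not tested.

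**Figure D3:**
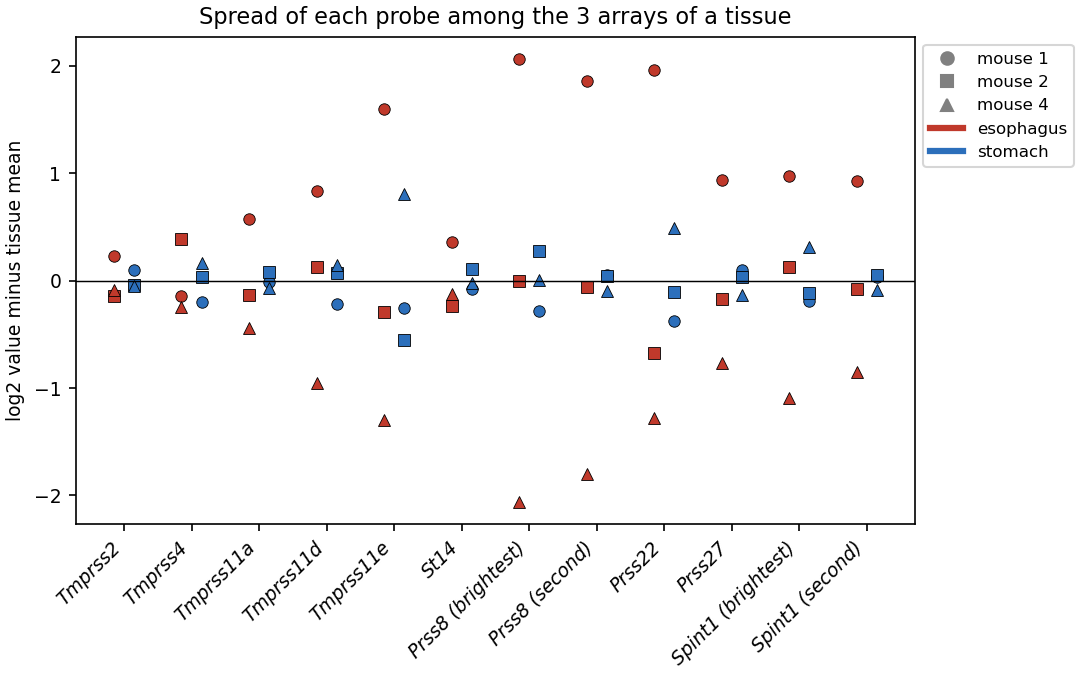
Log2 value of each probe minus the mean of its tissue (y axis) for the 3 esophagus arrays (red) and 3 stomach arrays (blue), with symbols for the mouse. The esophagus circles (mouse 1) lie highest and the triangles (mouse 4) lowest for 9 of 12 probes, and the blue points span less than the red for each of the 12.

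To ask whether protease and inhibitor changed together, the log2 value of the brightest *Spint1* probe was subtracted from that of each protease on the same array. This shows unequal change between tissues, not the relative amounts of the transcripts. Because this *Spint1* probe differed by only -0.08 between tissues, the tissue differences of the ratios nearly repeat those of the proteases. For *Tmprss11d* the result was -3.56, -3.42 and -3.29 in esophagus (mice 1, 2 and 4), an SD of 0.14 where *Tmprss11d* alone had an SD of 0.90, against -9.24, -9.02 and -9.38 in stomach, where *Tmprss11a*, *Tmprss11d* and *Prss27* were not above background. The spread did not narrow for all, since the esophagus SD went from 0.20 to 0.90 for *Tmprss2*, from 0.34 to 1.01 for *Tmprss4*, from 0.32 to 0.84 for *St14* and from 0.52 to 0.57 for *Tmprss11a*. The tissue difference of the ratio was -4.99 for *Tmprss2* and 5.91 for *Tmprss11e*, the latter from 5.02 to 6.77 over the other scalings. For *Tmprss11a* (8.21), *Tmprss11d* (5.79) and *Prss27* (1.28) it is set against a stomach level that was not measured, and over the other scalings it ran from 6.99 to 11.10, 4.5 to 8.46 and 0.71 to 1.85. For these 5 the tissues did not overlap, with p = 0.1 in a two-sided exact permutation test, the smallest that 3 against 3 arrays can give, and 0.18 after Benjamini-Hochberg adjustment over 9 ratios. The ratios of *St14* (-0.62), *Prss8* (-0.35), *Prss22* (0.19) and *Tmprss4* (0.90) overlapped between tissues, with exact permutation p of 0.4, 0.6, 0.9 and 0.4. All 4 hung on single arrays. Without the esophagus array of mouse 4 the *St14* ratio was -1.10 and the *Prss8* ratio 0.13, and without that of mouse 1 the *Prss8* ratio was -0.89, the *Prss22* ratio -0.30 and the *Tmprss4* ratio 1.46.

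The *Tmprss11* genes lie next to each other on chromosome 5, in the RefSeq order *Tmprss11c*, *Tmprss11d*, *Tmprss11a*, *Tmprss11g*, *Tmprss11f*, *Tmprss11b* and *Tmprss11e*, between *Gnrhr* and *Ythdc1*. Of these 7 genes, 6 were called higher in esophagus and *Tmprss11c* was not detected above background by any of the 6 arrays. *Tmprss11g* read 14.26, 11.88 and 11.55 in esophagus and 4.71, 4.27 and 4.30 in stomach, at least 218-fold higher in esophagus (log2 difference 8.13 ± 0.64, SE, n = 3 per tissue, limma adjusted p = 0.000117). Without the esophagus array of mouse 1 its log2 difference was 7.28. It was 6.68 with the offset of 50 and 11.05 with scaling to the 75th percentile, so the bound holds on the deposited scale only. *Tmprss11f* read 10.94, 9.99 and 7.50 against 4.80, 4.40 and 4.90, at least 24.1-fold higher (limma adjusted p = 0.00515), and its second probe read 8.78, 7.55 and 5.78 in esophagus, at least 6.2-fold higher. The call of the second probe was lost with the offset of 50 (1.81, limma adjusted p = 0.126) and without the esophagus array of mouse 2 (0.0925) or any 1 stomach array (0.0556 to 0.118), and its difference of 2.78 was 2.08 without the esophagus array of mouse 1 and 3.58 without that of mouse 4. The log2 difference of the brighter probe was 4.04 without the esophagus array of mouse 1 and 5.76 without that of mouse 4. With the offset of 50 it was 3.63, and with scaling to the 75th percentile 7.57. Both genes repeated the order of mice seen for *Tmprss11d* and *Tmprss11e*.

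The 2 probes of *Tmprss11b* disagreed in size. The one with the higher mean, annotated to an Ensembl transcript, read 9.05, 7.90 and 8.01 against 6.07, 6.91 and 7.18, a difference of 1.60. Its call was lost without the esophagus array of mouse 1 (limma adjusted p = 0.0533) and without the stomach array of mouse 1 (0.109) or 2 (0.0903), and with the offset of 50 (0.0628). The probe annotated to NM_177024 read 11.56, 9.06 and 9.60 against 4.35, 4.63 and 4.67, a difference of 5.52 and at least 41-fold. It gave 4.77 without the esophagus array of mouse 1, 4.23 with the offset of 50 and 8.46 with scaling to the 75th percentile. The array cannot say which of them stands for the gene. The genes on either side of the cluster were not called, with differences of 0.23 for *Gnrhr* (limma adjusted p = 0.415) and 0.48 for *Ythdc1* (0.141).

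**Figure D4:**
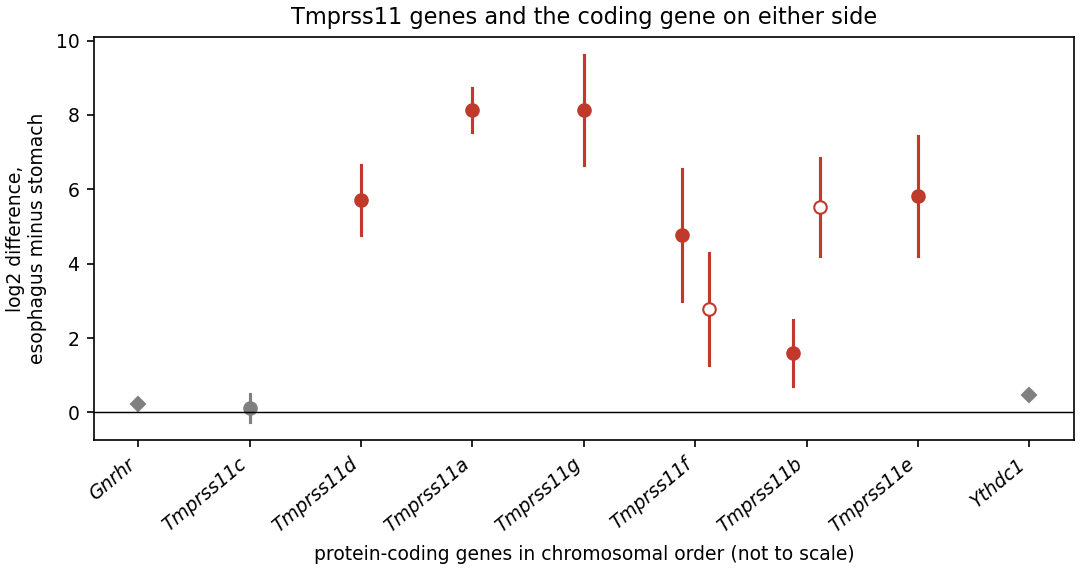
Log2 difference, esophagus minus stomach (y axis), of the *Tmprss11* genes and the coding gene on each side, in chromosomal order and not to scale, with 95% intervals for the *Tmprss11* probes. Filled circles are the brightest probe and open circles the second, red is called higher in esophagus, and the grey diamonds are *Gnrhr* at 0.23 and *Ythdc1* at 0.48, drawn without interval.

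The sequence upstream of these neighbors was read because they moved together. RefSeq starts (build GRCm38.p6) were at hand for 6 of the 7 cluster genes and for 5 of the 10 genes described here. The upstream windows of 4 are printed below, each the 250 bases before the start on the minus strand. *Tmprss11a*, *Tmprss11d* and *Tmprss11g* are shown for their shared word, and *Tmprss11c* as the neighbor that was not detected. Their positions are chr5:86468991-86469240, chr5:86373388-86373637, chr5:86518601-86518850 and chr5:86289309-86289558. Capitals mark matches to the p53 family half-site, a 10-base word bound by p53, p63 and p73.
Tmprss11a: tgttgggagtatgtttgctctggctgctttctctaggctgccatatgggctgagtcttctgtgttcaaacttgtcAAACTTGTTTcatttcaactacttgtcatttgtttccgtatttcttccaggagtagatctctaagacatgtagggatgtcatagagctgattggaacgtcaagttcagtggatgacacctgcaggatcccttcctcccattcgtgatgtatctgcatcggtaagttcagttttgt
Tmprss11d: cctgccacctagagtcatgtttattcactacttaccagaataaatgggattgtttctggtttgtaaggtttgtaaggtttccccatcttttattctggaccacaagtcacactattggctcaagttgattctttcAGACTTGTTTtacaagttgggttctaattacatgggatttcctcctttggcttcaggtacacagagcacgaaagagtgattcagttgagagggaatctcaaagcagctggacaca
Tmprss11g: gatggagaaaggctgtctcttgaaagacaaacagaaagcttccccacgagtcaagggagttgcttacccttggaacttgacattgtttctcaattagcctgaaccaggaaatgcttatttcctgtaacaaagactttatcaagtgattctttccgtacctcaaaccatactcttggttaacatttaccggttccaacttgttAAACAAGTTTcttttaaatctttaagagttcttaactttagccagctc
Tmprss11c: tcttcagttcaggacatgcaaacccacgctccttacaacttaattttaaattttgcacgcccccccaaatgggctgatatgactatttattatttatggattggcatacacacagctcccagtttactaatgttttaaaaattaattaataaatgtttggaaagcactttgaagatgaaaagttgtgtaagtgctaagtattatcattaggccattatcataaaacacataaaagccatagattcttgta
On both strands, the half-site was found upstream of 4 of the 6 cluster genes, *Tmprss11a*, *Tmprss11b*, *Tmprss11d* and *Tmprss11g*, and in 7.13% of 32851 upstream windows of the same length. Its first base lay 175 bases before the start of *Tmprss11a*, 115 before that of *Tmprss11d* and 48 before that of *Tmprss11g*. The Grainyhead-like word AACNNGTT was found in 3 of the 6 and in 3.64% of all windows. In *Tmprss11a*, *Tmprss11b* and *Tmprss11g* a match overlapped the half-site, so these 2 counts are not separate. A loose AP-1 word, TGANTCA with any base at N, was found upstream of 2 of the 6, *Tmprss11d* and *Tmprss11f* (6.75% of all). It read TGATTCA in *Tmprss11d* and TGAGTCA in *Tmprss11f*, so the matches differ at the middle base. *Tmprss11f* had no half-site although it was called higher in esophagus. The Kruppel-like word CACCC was found upstream of 1 (52%) and the GATA word AGATAA upstream of 0 (9.99%). The words were chosen after the sequences had been seen, and a match describes letters, not a bound site. The 6 cluster genes are neighboring paralogs, so their windows cannot be counted as independent. Their counts are therefore no test against the shares of all windows.

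Among the 14 other type II transmembrane proteases on the array, 6 were called higher in esophagus, 1 higher in stomach, and 7 were not well above background on any array. The last was so for 12416 of all 34298 gene names. The median difference was 0.09. Besides the cluster genes, the 6 were *Tmprss13*, *Tmprss3* and *Tmprss12*. *Tmprss13* had a mean log2 level of 12.90 ± 0.42 in esophagus and 6.14 ± 0.30 in stomach (SD, n = 3), a 108-fold difference (limma adjusted p = 1.81e-06). *Tmprss3*, known for its role in hearing, was 2.18-fold higher by one probe, while its second probe was not above background on any of the arrays. *Tmprss12* was dim, at 5.44, 6.09 and 6.20 in esophagus, with 2 of the 3 arrays well above background and none in stomach. Its ratio of 2.16-fold therefore includes an esophagus value that was not measured and is not a strict bound. *Hpn*, encoding hepsin, was the stomach counterpart and read 7.41, 6.81 and 6.81 in esophagus and 13.64, 13.90 and 13.21 in stomach. Its difference of -6.57 ± 0.24 (SE, n = 3 per tissue, limma adjusted p = 1.78e-06) placed it beside *Tmprss2*, so 1 protease of the 10 and 1 of the 14 were higher in stomach.

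None of 14 trypsin-like proteases of the tryptase and testisin group was called with limma, 3 had an unadjusted p under 0.05, and 8 were not well above background on any array. The 2 probes of *Tpsb2*, a tryptase gene, disagreed, one at 8.34 ± 0.81 in esophagus and 8.84 ± 1.11 in stomach (SD, n = 3) and the other at 4.90 and 4.94, not above background on any of the arrays. Of 9 other protease inhibitors, 1 was called. This was *Spint2*, encoding HAI-2, the second Kunitz-type inhibitor of matriptase and prostasin, which read 15.11, 14.66 and 14.46 in esophagus and 15.93, 15.55 and 16.23 in stomach. It was 2.24-fold higher in stomach (difference -1.16 ± 0.24, SE, n = 3 per tissue, limma adjusted p = 0.0172), and its second probe gave -1.12.

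Of 15 proteins reported to be cleaved by, or to act downstream of, these proteases, 5 were called higher in esophagus and 1 higher in stomach, with a median difference of 0.30. *Mst1*, encoding macrophage-stimulating protein, a secreted zymogen-like ligand, had the widest gap, at 11.02 ± 0.27 in esophagus and 5.71 ± 0.18 in stomach (SD, n = 3), 39.6-fold (limma adjusted p = 1.44e-06). The gene of its receptor, *Mst1r*, had a difference of -0.58 and was not called (limma adjusted p = 0.0568). *Epcam*, an epithelial adhesion gene, was not called at -0.72 (limma adjusted p = 0.0623). *Egfr* was 2.17-fold by its brightest probe, with 1 of its other 2 probes not called (1.16, limma adjusted p = 0.0615), and the sodium channel subunit gene *Scnn1b* at least 3.22-fold higher in esophagus. *Scnn1a*, the alpha subunit, was not called, with means of 11.67 in both tissues. *Met*, the hepatocyte growth factor receptor gene, was 1.44-fold higher in stomach. The probes of *Ocln*, encoding occludin, disagreed at the threshold, the brighter at -1.59 (limma adjusted p = 0.058) and the second at -1.75 (0.0135).

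Of 7 genes of plasminogen activation, 2 were called higher in esophagus, 1 higher in stomach and 4 were not called, with a median difference of 0.12. *Plau*, the urokinase gene and also one of the 15 above, was 4.23-fold higher in esophagus, while *Plaur*, its receptor gene, was 15.7-fold higher in stomach (limma adjusted p = 0.0183 and 0.000128). *Serpinb2*, an inhibitor of urokinase, read 12.22, 12.86 and 8.30 in esophagus, with mouse 4 far below the others, and on the mean of the 3 was at least 82.9-fold higher in esophagus (limma adjusted p = 0.00518). Its log2 difference was 6.51, with 5.65 without the esophagus array of mouse 2 and 7.92 without that of mouse 4. *Plat*, encoding tissue plasminogen activator, was not called (difference -0.98 ± 1.27, SE, n = 3 per tissue).

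The genes most like *Tmprss11a* and *Tmprss2* in pattern were ranked by Pearson's r over the 6 arrays, among 25843 probes, with each gene name taken at its most similar probe. For *Tmprss11a* these included *Dapl1* and *Ppbp* (r = 0.9998), *Trp63* through its NM_011641 probe (0.9997), *Rcn1* (0.9996) and *Tmigd1* (0.9995). For *Tmprss2* they included *Hspg2* (0.9999), *Clic6* (0.9998), and *Kcnq1* and *Mucl3* (0.9997 each). With 2 tissues far apart, r is near 1 for any gene that separates them with little spread, and 253 gene names exceeded 0.99 for *Tmprss11a* and 401 for *Tmprss2*.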

How the data were processed

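Total RNA of 6 organoid cultures was labelled with Cy3 and hybridised to single-color arrays, which the authors read with Agilent Feature Extraction 11.5.1.1. The deposited scanner files give the raw intensity of each of 62976 spots, 3671 of them controls, and quality flags. The deposited table gives log2 values that the authors background corrected and quantile normalized. They were matched within a median absolute difference of 0.00433 by normexp with offset 15 on median intensities. Its 2029 empty cells are outlier spots.

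Groups and mice were taken from the labels. In R 4.3.3 with limma 3.58.1, spots were averaged per probe and lmFit and eBayes compared the tissues with no block term. P-values were adjusted over 55681 probes (Benjamini-Hochberg). The script was tested on simulated data. Every probe of the 10 genes was given. Of the other lists, genes that passed and up to 4 bright ones that did not could be named. The immune markers, and *Tmprss11c* as a gene of the cluster, were named outside this rule. The late differentiation list and sequence words were added after values were seen. The members and lists were chosen with earlier results of these data known. The arrays of 1 mouse are paired by animal, and their deviations from the tissue means correlated with r = 0.025, 0.012 and -0.008 for mice 1, 2 and 4. Alternatives were scanner intensities (normexp offset 16 or 50, or scaling to the 75th percentile), a filter on dim probes, averaged probes, trended and robust variances, mouse or slide as a block, 1 slide, the methods' unadjusted threshold and leaving out each array. The signal over background limits dim genes. Not every gene of the other lists that passed is reported here.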

Additional observations from a re-analysis of the deposited data

How the results depend on the processing

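*Tmprss2*, *Tmprss11a*, *Tmprss11d* and *Tmprss11e* kept their direction and passed in every alternative run, but the size of the last 3 moved with the scale. With normexp offset 50 and with 75th percentile scaling, *Tmprss11a* gave 6.90 and 11.33, *Tmprss11d* 4.41 and 8.69, and *Tmprss11e* 4.94 and 7.0, so bounds given as at least N-fold belong to the deposited scale. *Prss27* gave 0.62 and 2.08, and 0.73 to 1.58 with arrays left out. Over the 12 probes and the alternatives tabulated for each, 152 values kept direction and side of the threshold, 6 fell short of it, 7 came to pass it and 16 reversed. All of the latter were for *Prss8*, *Prss22* and *Spint1*, which were not called. In these counts averaged probes enter only for *Prss8* and *Spint1*, the genes with a second probe, and the dim-probe filter has no value for *Prss27*. The call of *St14* with averaged probes, given below, is therefore not among the 7. With the slide as a block, or on 1 slide only, *Prss8* gave 0.60 and 0.80 for its probes and *Spint1* 0.47. With 75th percentile scaling *Prss22* gave -0.01 and *Spint1* 0.23, with averaged probes *Spint1* gave 0.02, and the *Prss22* to *Spint1* ratio went from 0.19 to -0.24 under the scaling. The slide fits leave out, in effect, the esophagus array of mouse 4, and the cause of the others was not tested. Leaving out each array gave -1.46 to 0.60 and -1.02 to 0.80 for *Prss8*, -0.87 to 0.75 for *Prss22*, and -0.57 to 0.47 and -0.34 to 0.54 for *Spint1*. The ratios then ranged from -0.89 to 0.13 for *Prss8*, -0.30 to 0.58 for *Prss22*, -1.10 to -0.31 for *St14* and 0.48 to 1.46 for *Tmprss4*. Genes of the 10 called higher in stomach were 2 rather than 1, with *St14* added, under the dim-probe filter, averaged probes and the unadjusted threshold, and 1 to 2 with arrays left out. Those higher in esophagus were 3 to 5. Of the 58 other genes of the lists, 4 were higher in stomach (2 to 4 with arrays left out, and 4 to 6 under the other alternatives) and 12 in esophagus (10 to 14 under both). All gene names higher in esophagus were 2452, 3768 at an unadjusted p under 0.05 with a 1.5-fold change, and 1349 to 2611 with arrays left out. The replicate block by mouse removed the call of *Tmprss4* (adjusted p = 0.0578) and changed no other call of the 10 genes.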
